A study of Mus musculus with 32 samples.

Results

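AP-1 and the other immediate early transcription factors were followed in sorted Lgr5-EGFP+ cells of murine colonoids that were untreated (UT) or treated with bethanechol (Bch). The members were taken by name and comprised 10 of the 23517 genes in the count table, namely the Fos family (Fos, Fosb, Fosl1 and Fosl2), the Jun family (Jun, Junb and Jund), and Atf3, Egr1 and Ier2. All 10 had UMIs in every mouse and treatment. Colonoids are organoids of the colonic epithelium, here set up from crypts of the proximal colon. The donor mice carried the Lgr5-EGFP-IRES-CreERT2 allele, by which EGFP is expressed from the locus of the Wnt target and stem cell marker Lgr5. Every mouse gave an untreated culture and a culture that received 250 nM Bch, a non-selective agonist of muscarinic acetylcholine receptors, daily for 4 days. Both cultures carried the reporter allele and grew in the same L-WRN medium. As a model, such cultures lack nerves, stroma and immune cells.

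AP-1 is a dimer of leucine-zipper proteins that binds DNA as a Fos-Jun or Jun-Jun pair, and its composition is set in part by which family members are transcribed. Fos, Fosb, Jun, Junb, Egr1, Atf3 and Ier2 are classical immediate early genes, whose transcription follows growth factor, calcium and stress signals within minutes and usually decays again within hours. Fosl1 and Fosl2 encode the Fos-related proteins FRA-1 and FRA-2, which often stay up longer after a stimulus, and Jund is transcribed more steadily. In intestinal epithelium these factors act downstream of MAP kinases, which muscarinic receptors can engage. Enzymatic dissociation of tissue is also known to induce immediate early genes, and the cells measured here had been dissociated at 37 °C and sorted before lysis.

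Measurements came from 8 mice, each with both treatments and with 2 technical replicates per treatment, which were summed to 16 sums of 557512 to 4050342 UMIs. BR1–BR4 are labelled as male, with sorted Lgr5+ cells as the source and the RNeasy Plus Micro kit. BR7–BR10 carry no sex in the labels, name colonic organoids as the source and the RNeasy Mini kit, and were taken as female because the series text counts 4 female and 4 male mice. Xist, expressed from the inactive X chromosome, ranged from 43.8 to 161 CPM (UMI counts scaled to a common library size) in BR7–BR10 and from 11.9 to 24.2 CPM in BR1–BR4, and the Y-linked Eif2s3y from 2.57 to 8.62 and from 36.5 to 62.8 CPM. Sex, source and kit cannot be told apart between these sets, so each set was tested on its own. Lgr5 was detected in every sum, at 12.4 to 38.6 CPM, as was the stem cell factor Ascl2, at 156 to 423 CPM. Of 12 listed markers of stroma and immune cells, the 7 with a row in the count table together reached at most 6.40 CPM, and Col1a2, Col3a1, Dcn, Pdgfra and Cd3e were not analysed here. Goblet markers summed to between 3528 and 14110 CPM, and which cells of the sorted fraction these transcripts came from was not tested.

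The upstream DNA of the members is given as a description and was not related to how their levels varied between samples. RefSeq (GRCm38.p6) gave a promoter window for 7 of the 10 members, and the 120 bases before the annotated start are printed for 3 of them. Capitals mark TGACG, the first 5 letters of the cyclic AMP response element (CRE) TGACGTCA, in Fos and Junb, TATAAA in Fos, and TGACATCA, a relative of the CRE, in Jun.
Fos, chr12:85473770-85473889, plus strand: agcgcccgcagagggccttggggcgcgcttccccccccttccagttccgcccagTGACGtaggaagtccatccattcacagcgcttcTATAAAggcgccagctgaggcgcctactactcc
Jun, chr4:95052223-95052342, minus strand: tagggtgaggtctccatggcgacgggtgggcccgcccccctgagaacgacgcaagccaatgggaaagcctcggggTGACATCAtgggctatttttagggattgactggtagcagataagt
Junb, chr8:84978749-84978868, minus strand: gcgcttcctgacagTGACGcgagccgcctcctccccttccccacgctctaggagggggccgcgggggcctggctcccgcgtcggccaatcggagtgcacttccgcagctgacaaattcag
Both strands of the 250 bases before the RefSeq start were searched. Only for Fos and Jun is this start the same as that of the GENCODE gene, whose position is given further on. The windows of Jund and Junb lie upstream of the gene without adjoining it. The Fosb window runs a few bases into the gene, and those of Fosl2 and Atf3 lie inside the gene. The full CRE occurred in 0 of 7 member windows and in 1.62% of 27025 promoters. The AP-1 site itself, TGACTCA or its reverse complement TGAGTCA, also occurred in 0 of 7, against 4.43% of promoters, and the CArG box of serum response factor in 0 of 7, against 1.4%. TATAAA was found in Fos only, from base -33 to base -28, against 13% of promoters. TGACG, which is part of the CRE and was added after the sequences had been seen, occurred in 4 of 7 windows (Fos, Fosb, Junb and Atf3) and in 17.9% of promoters. TGACATCA, likewise added, lay from base -45 to base -38 of Jun and occurred in 3.02% of promoters. These matches describe the letters of the windows and not bound sites. Fosl1, Egr1 and Ier2 had no window, and bases further upstream were not searched. A result of 0 of 7 therefore does not show that the members lack such a site.

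The mRNAs of immediate early genes are short-lived, in part through AU-rich elements built from ATTTA in their 3′ untranslated regions. In the GENCODE M21 annotation of GRCm38, Fos carried 4 such motifs in 815 bases, Jun 4 in 1233 bases, Fosl2 8 in 4653 bases, Atf3 3 in 1186 bases, Junb 2 in 485 bases and Egr1 2 in 1216 bases. Fosb, Fosl1 and Jund had 1 each and Ier2 had 0. Over 21020 genes, 65.2% carried at least 1, with a median of 1. These counts depend on length. Per kb the median was 1.35, and 7.76% of genes were at least as dense as Fos, 11.9% as Junb and 19.4% as Jun. For the other members with a motif, this share was between 28.6% (Atf3) and 66.9% (Fosb), with 42.4% for Fosl2. The stretch with the most motifs is shown for Fos and Fosl2, the members with the densest and the most numerous copies, with ATTTA in capitals.
Fos, bases 648 to 677 of the 3′ untranslated region: tttcaATTTATTTAttaagatggattctca
Fosl2, bases 3677 to 3706: ttgacATTTAttttattATTTAttttaaat
In Fos, the copies shown share an A.

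None of the members passed the test for a Bch response. In BR7–BR10, 0 of 10 members were called at an adjusted p of 0.05 by edgeR's quasi-likelihood test with the mouse as a block, against 0% of 9515 genes tested, and in BR1–BR4, 0 of 9 members against 0.021% of 9509. The 2 genes called in BR1–BR4 were the small nuclear RNA gene Rn7sk and the pseudogene Rps24-ps3, neither of them a member, and Rps24-ps3 is a near copy of Rps24, so that its counts are uncertain. Fosb did not pass the filter on low counts in BR1–BR4. At an unadjusted p under 0.05, 2 of 10 members stood out in BR7–BR10 (Fosl1 higher, Ier2 lower) against 3.78% of genes, and 2 of 9 in BR1–BR4 (Fos and Junb lower) against 7.72%. DESeq2's Wald test also called 0 members in either set, with unadjusted p under 0.05 for Fosl1 and Ier2 in BR7–BR10 and for 0 members in BR1–BR4. The median log2 fold change of the members was 0.10 in BR7–BR10 and -0.18 in BR1–BR4, beside 0.00 over all genes in both sets. On simulated counts, the same steps recovered 63.4% of the genes given a log2 change of 1 in BR7–BR10 and 76.8% in BR1–BR4. For the difference between the responses of the sets, they recovered 32.3%. Smaller changes, such as those fitted for most members, were not simulated. Direction was also counted, and in BR7–BR10 only Fosl2 was higher (5.78% of genes) and only Ier2 lower (5.61%) with Bch in 4 of 4 mice. Both members held the same place in BR1–BR4, where 8.19% of genes were higher and 6.86% lower in 4 of 4 mice. In every member and set the range of the treated sums overlapped that of the untreated sums. The share of all genes with such an overlap was not computed, so this does not set the members apart.

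**Figure D1:**
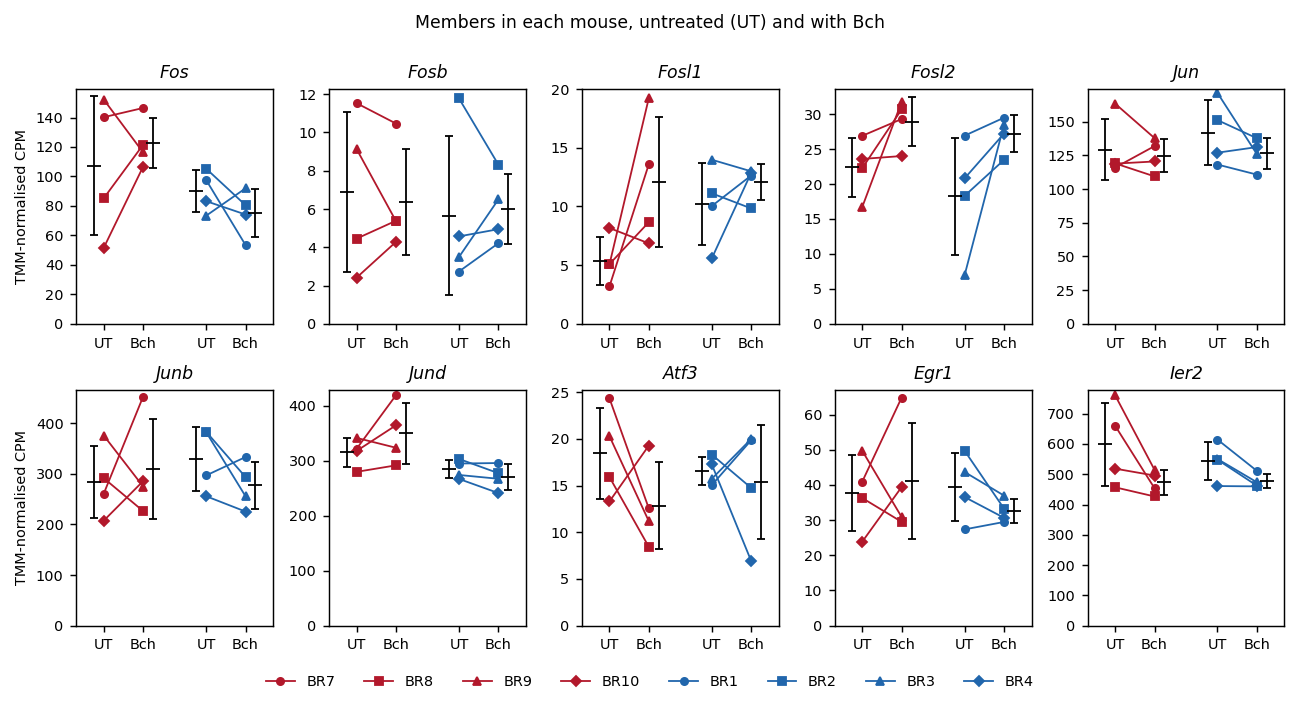
Level of each member in TMM-normalised CPM (vertical axis from 0) in untreated (UT) and Bch-treated cells. Lines join the sums of a mouse, red for BR7–BR10 and blue for BR1–BR4, and black bars give the mean ± SD of 4 mice. Fosl2 lines go up in 8 of 8 mice and Ier2 lines go down in 8 of 8, while the treated and untreated ranges overlap in each panel.

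In the Fos family, Fosl2 was the member with the steadiest direction. Fosl2, which encodes FRA-2, lies at chr5:32135801-32157842 on the plus strand. In BR7–BR10, the untreated sums held 26.9, 22.3, 16.7 and 23.6 CPM for mice BR7, BR8, BR9 and BR10, and the Bch-treated sums 29.3, 30.7, 31.8 and 24.0 CPM. In BR1–BR4, the untreated sums held 26.9, 18.3, 6.99 and 20.8 CPM for mice BR1, BR2, BR3 and BR4, and the Bch-treated sums 29.5, 23.4, 28.5 and 27.2 CPM. The treated value was the higher one in 8 of 8 mice, with the smallest step in BR10 and the largest in BR3, where the untreated sum is the shallowest of all and rests on 4 Fosl2 UMIs. Among all 10280 genes tested over both sets, 0.574% were higher with Bch in each of the 8 mice. The log2 fold change was 0.38 (SE 0.23, adjusted p = 0.999) in BR7–BR10 and 0.49 (SE 0.24, adjusted p = 0.648) in BR1–BR4. Without BR9 the former was 0.20, and without BR3 the latter was 0.29. An edgeR fit with a single Bch effect over both sets was added after these values had been seen. It gave 0.43 (SE 0.16), an unadjusted p of 0.0119 and an adjusted p of 0.900. The fit called 0% of 10280 genes, and 5.4% had an unadjusted p under 0.05.

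Fosl1, the gene of FRA-1, is a member often tied to migrating and regenerating epithelium. Among the members it had the largest fitted fold change in BR7–BR10 and over both sets, whereas in BR1–BR4 Fosl2 had it. Fosl1 lies at chr19:5447547-5455946 on the plus strand. The untreated sums of BR7–BR10 held 3.20, 5.09, 5.07 and 8.16 CPM and the Bch-treated sums 13.6, 8.67, 19.2 and 6.86 CPM. BR7, BR8 and BR9 were higher with Bch and BR10 was lower, on 5 to 43 UMIs per sum. The log2 fold change was 1.02 (SE 0.39), with an unadjusted p of 0.0112 and an adjusted p of 0.999 by edgeR, and leaving out single mice moved it between 0.67 and 1.57. For BR1–BR4, the untreated sums held 10.0, 11.1, 14.0 and 5.59 CPM and the treated sums 12.6, 9.83, 13.0 and 12.9 CPM. Here 2 of 4 mice were higher with Bch, and the log2 fold change was 0.32 (SE 0.33, adjusted p = 0.900), with 0.03 without BR4. The mean of the untreated sums was 5.38 ± 2.06 CPM (SD, n = 4) in BR7–BR10 and 10.2 ± 3.49 CPM in BR1–BR4. This difference of the sets did not pass the test, at a log2 fold change of -0.77 (SE 0.40, adjusted p = 0.423). Fosl1 shares 2767 bases with Ccdc85b on the opposite strand, and whether counting used the strand is not given in the sources used here. Ccdc85b differed by 0.01 and 0.07 on the log2 scale between treatments, in BR7–BR10 and BR1–BR4.

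Fos, at chr12:85473890-85477273 on the plus strand, encodes the founding partner of the Jun proteins. In BR7–BR10 its untreated sums held 140.2, 85.3, 152 and 51.7 CPM and its treated sums 146, 122, 116 and 107 CPM. The untreated mice differed by more than those with Bch, and 3 of 4 were higher with Bch, BR9 being the exception. The untreated sums of BR1–BR4 held 97.6, 105, 73.4 and 83.3 CPM and the treated sums 53.5, 80.6, 92.0 and 74.2 CPM. There 3 of 4 mice were lower with Bch and BR3 was higher. The log2 fold change was 0.30 (SE 0.17, adjusted p = 0.999) in BR7–BR10 and -0.31 (SE 0.14, adjusted p = 0.605, unadjusted p = 0.0385 by edgeR) in BR1–BR4. Single mice weighed on both values, as the former was 0.06 without BR10 and 0.54 without BR9, and the latter -0.12 without BR1 and -0.46 without BR3. The difference between both responses was 0.61 on the log2 scale (SE 0.26), 0.37 without BR10 and 0.86 without BR9. Its unadjusted p was 0.0296 and its adjusted p was 1 by edgeR's interaction test, in which 0% of 10280 genes were called and 4.39% had an unadjusted p under 0.05. Fos was the only one of the 10 members with an unadjusted p under 0.05 in that test. With Bch, all 4 sums of BR7–BR10 lay above all 4 of BR1–BR4, a pattern that 3.58% of genes shared and that no other member had. The opposite order, shared by 3.79% of genes, was seen in 0 members.

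Fosb, at chr7:19302696-19310051 on the minus strand, was detected on 2 to 23 UMIs per sum, from 2.42 to 11.8 CPM. Its fitted log2 fold change was -0.01 (SE 0.46) in BR7–BR10, and the approximate 95% interval ran from -0.91 to 0.90, so that neither a rise nor a fall of nearly that size could be told from no change at this depth.

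Within the Fos family, Fos made up most transcripts in every sum, and its share was computed from UMIs of the 4 genes together, from 56 in BR3 UT to 710 in BR8 Bch. In BR1–BR4 the share of Fos was 71.1%, 71.9%, 75.0% and 72.9% in the untreated sums and 53.6%, 65.9%, 65.7% and 62.2% in the Bch-treated sums. It was lower with Bch in 4 of 4 mice, by 10.8 ± 4.85 percentage points (SD, n = 4), and the groups did not overlap. The share of Fosl2 was 19.6%, 12.5%, 7.14% and 18.2% untreated and 29.5%, 19.2%, 20.4% and 22.8% with Bch. It was higher in 4 of 4 mice, by 8.61 ± 3.77 percentage points, although the ranges overlapped. In BR7–BR10 no such order was seen. The share of Fos there was 77.1%, 72.8%, 83.1% and 60.2% untreated and 73.3%, 73.1%, 67.4% and 75.2% with Bch, so that it was higher with Bch in 2 of 4 mice. These shares were examined after the levels had been seen, are not independent of them and were not tested. UMIs count 3′ ends of molecules, so the shares need no division by transcript length, but they assume that each mRNA is captured alike.

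**Figure D2:**
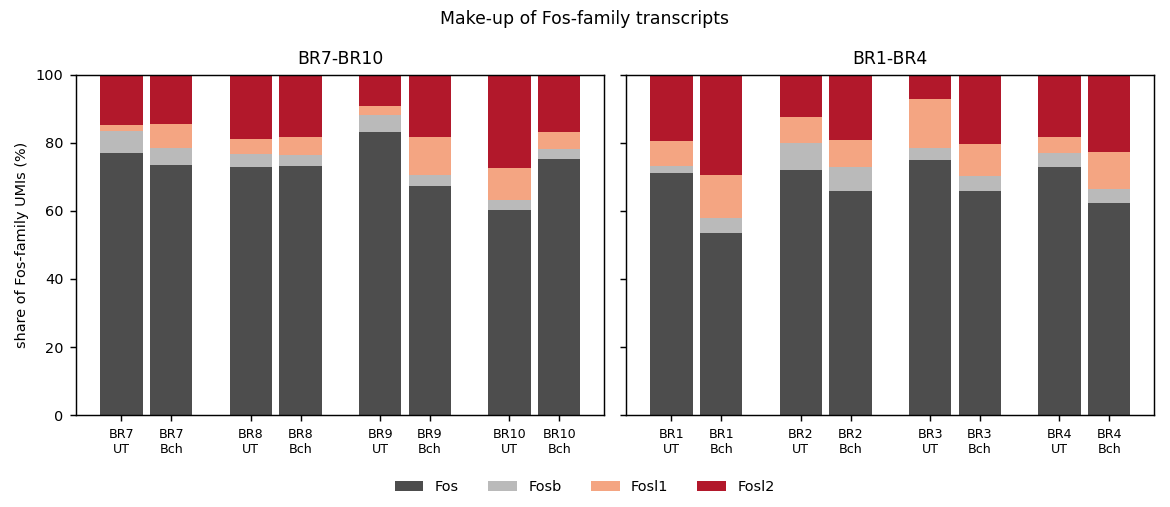
Share (%) of the UMIs of Fos, Fosb, Fosl1 and Fosl2 in each sum, stacked to 100%, for BR7–BR10 on the left and BR1–BR4 on the right, with untreated (UT) and Bch side by side for each mouse. In BR1–BR4 the Fos share is at least 71.1% untreated and at most 65.9% with Bch, whereas in BR7–BR10 it is higher in 2 mice and lower in 2.

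The Jun family supplies the partner of every Fos protein. Jun, at chr4:95049034-95052222 on the minus strand, is a gene with 1 exon. It ranged from 116 to 163 CPM in the untreated sums of BR7–BR10 and from 109 to 138 CPM with Bch, and from 118 to 171 and from 111 to 138 CPM in BR1–BR4. Its log2 fold change was -0.05 (SE 0.14) in BR7–BR10 and -0.14 (SE 0.11) in BR1–BR4, and 3 of 8 mice were higher with Bch. Junos, an antisense gene over 689 of its bases, held 235 UMIs in all against 4168 of Jun. Its log2 fold change was -0.47 in BR7–BR10 and 0.39 in BR1–BR4, and it was not called in either set (adjusted p = 0.999 and 0.888 by edgeR).

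Junb, at chr8:84974484-84978718 on the minus strand, encodes a Jun protein that can restrain the growth-promoting activity of Jun. In BR7–BR10 its untreated sums held 261, 291, 376 and 208 CPM and its treated sums 453, 226, 275 and 286 CPM. Mice BR7 and BR10 were higher with Bch and BR8 and BR9 lower, with a log2 fold change of 0.11 (SE 0.16, adjusted p = 0.999). The untreated sums of BR1–BR4 held 297, 383, 383 and 256 CPM and the treated sums 333, 294, 256 and 226 CPM. Only BR1 was higher with Bch. The log2 fold change was -0.23 (SE 0.10), with an unadjusted p of 0.0268 and an adjusted p of 0.576 by edgeR, and it was -0.13 without BR3 and -0.37 without BR1. Junb shares 351 bases with the abundant Prdx2 gene on the opposite strand, which differed by -0.01 and -0.02 on the log2 scale between treatments.

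Jund, a gene with 1 exon at chr8:70698949-70700616 on the plus strand, varied least of the 10 in untreated cells of either set. It had a coefficient of variation of 8.18% in BR7–BR10 and 6.01% in BR1–BR4, which was 2.02 and 1.11 times the SD that counting alone gives. Its log2 fold change was 0.14 (SE 0.13) in BR7–BR10 and -0.08 (SE 0.09) in BR1–BR4. The antisense gene Gm11175 covers 919 of its bases. It had a log2 fold change of 0.20 in BR7–BR10 and 0.77 in BR1–BR4 and was not called in either set (adjusted p = 0.999 and 0.384 by edgeR). Of the UMIs of the Jun family, Jund made up 33.1% to 49.3%, Junb 32.2% to 46.2% and Jun 13.1% to 21.9% over the 16 sums, and none of the 3 shares moved one way in all mice of a set.

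Ier2, which encodes a small nuclear regulator and lies as 1 exon at chr8:84661331-84662852 on the minus strand, was lower with Bch in 8 of 8 mice. In BR7–BR10 its untreated sums held 660.1, 457, 761 and 519 CPM and its treated sums 454, 427, 515 and 496 CPM. The untreated sums of BR1–BR4 held 615, 548, 550.4 and 461 CPM and the treated sums 511, 463, 474 and 460.1 CPM. The step was large in BR7 and BR9, and in BR4 the values were almost equal. Among all genes tested over both sets, 0.409% were lower with Bch in each of the 8 mice. The log2 fold change was -0.31 (SE 0.14, unadjusted p = 0.0306, adjusted p = 0.999 by edgeR) in BR7–BR10 and -0.18 (SE 0.09, adjusted p = 0.652) in BR1–BR4. The added edgeR fit over both sets gave -0.25 (SE 0.08), an unadjusted p of 0.00397 and an adjusted p of 0.832. By its p, Ier2 had rank 46 of 10280 genes. Ier2 was the one member whose technical replicates differed by clearly more than counting noise, at a mean chi-square of 5.17 per pair of libraries on 1 degree of freedom, while the other members ranged up to 1.8. Each technical replicate on its own kept the negative sign.

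Atf3, a stress-inducible partner of Jun proteins at chr1:191170296-191218039 on the minus strand, held 24.3, 15.9, 20.3 and 13.3 CPM in the untreated sums of BR7–BR10 and 12.6, 8.43, 11.2 and 19.3 CPM with Bch. It was lower with Bch in BR7, BR8 and BR9 and higher in BR10, with a log2 fold change of -0.48 (SE 0.29, adjusted p = 0.999). Without BR10 it was -0.89 and without BR8 -0.34, and over all alternatives described further on it was as small as -0.15. In BR1–BR4 it ranged from 15.1 to 18.3 CPM untreated and from 6.93 to 20.0 CPM with Bch, and 2 of 4 mice were higher. A small RNA gene, Gm24748, covers 108 bases of Atf3 on the opposite strand. Egr1, a zinc finger factor induced through serum response factor, ranged from 23.9 to 49.7 CPM untreated and from 29.5 to 64.9 CPM with Bch in BR7–BR10. Its log2 fold change was 0.09 (SE 0.21) there and -0.26 (SE 0.19) in BR1–BR4, where 1 of 4 mice was higher with Bch.

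**Figure D3:**
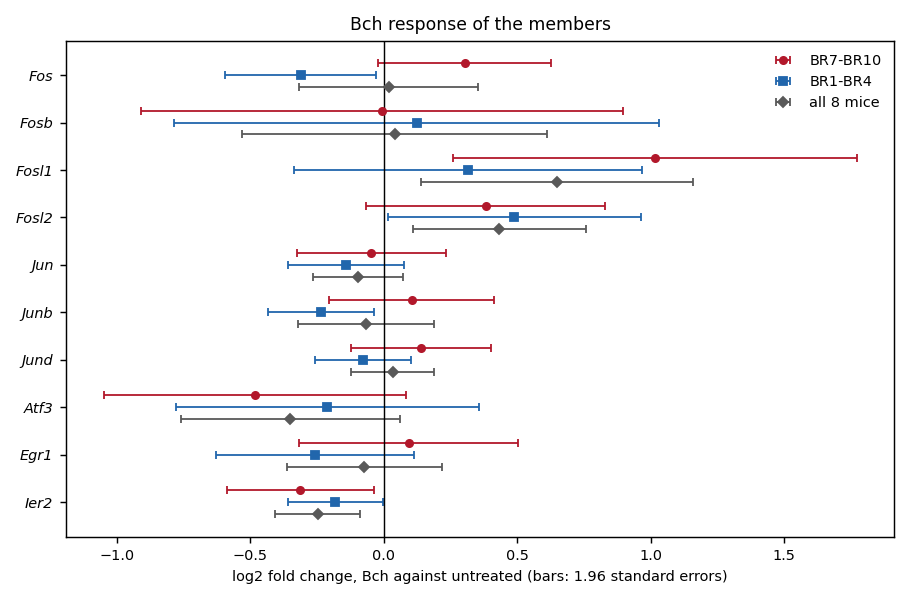
Log2 fold change of Bch against untreated for the 10 members in BR7–BR10 (red circles), BR1–BR4 (blue squares) and, in the added fit, all 8 mice (grey diamonds), with bars for approximate 95% intervals and a line at 0. Intervals of Fosl1, Fosl2 and Ier2 over all 8 mice lie on 1 side of 0 before adjustment, and 0 members pass after it. Fosb in BR1–BR4 comes from the fit without a filter on low counts.

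The members did not move as a block. In BR7, 7 of 10 members were higher with Bch, among them Fosl1 by 1.80, Junb by 0.79 and Egr1 by 0.65 on the log2 scale. BR9 of the same set gave lower values for 8 of 10 members, Egr1 by -0.67 and Junb by -0.45, with Fosl1 at 1.74 and Fosl2 at 0.89 as the exceptions. In BR10, Fos was higher by 1.03 and Fosl1 lower by -0.22. BR2 was lower for 9 of 10 members, and its exception was Fosl2 at 0.34. Fos and Fosb, Junb and Egr1, and Fosb and Egr1 had the highest correlations over the 16 sums. They were r = 0.80, 0.79 and 0.77 after centring within each set and treatment. Fosl2 and Jun had the lowest, at r = -0.72, so that sums with more Jun for their set and treatment had less Fosl2. BR3 UT, the shallowest sum, had both the highest Jun (171 CPM) and the lowest Fosl2 (6.99 CPM on 4 UMIs). The coefficient without this sum was not computed. The 16 sums come from 8 mice and differ in depth, and these coefficients are descriptions.

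**Figure D4:**
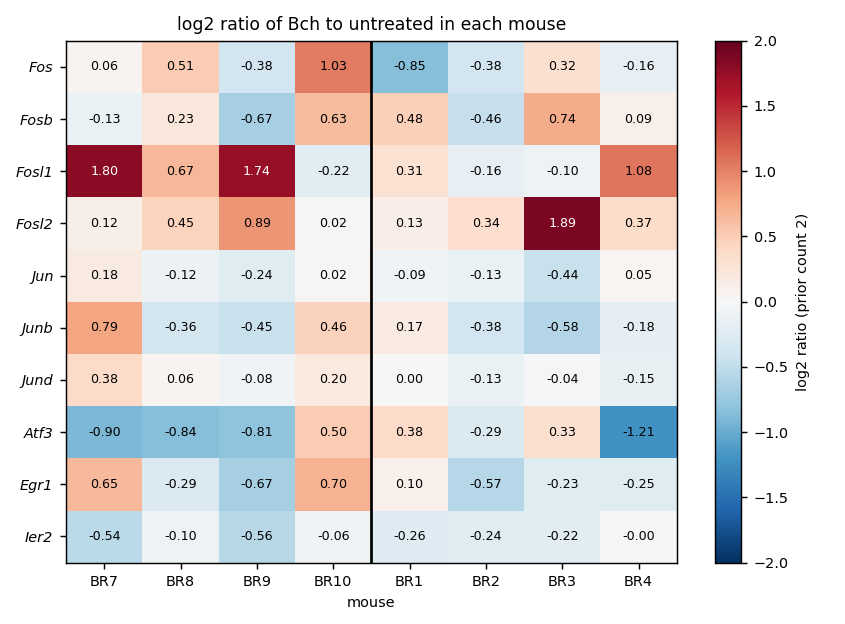
Log2 ratio of Bch-treated to untreated level (prior count 2) for each member (row) and mouse (column), with BR7–BR10 left and BR1–BR4 right of the black line, red for higher and blue for lower with Bch. Fosl2 is above 0 and Ier2 below 0 in all columns, and the other rows change sign between mice.

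Several members differed between mice of the same group by more than counting noise. The SD of Fos over the untreated sums of BR7–BR10 was 6.13 times the SD expected from counting and that of Junb 5.71 times, whereas Fosl2 reached 1.23 times and Fosl1 1.28 times. This order did not hold in every group. In the untreated sums of BR1–BR4 Fosl2 reached 2.43 times and Fos 1.70 times, and in the treated sums of BR7–BR10 Fosl1 reached 2.11 times and Fos 2.03 times, while Junb lay between 3.70 and 7.10 times in all 4 groups. Ier2 reached 7.75 times, but its technical replicates also differed by more than counting gives, with a mean chi-square of 5.17 on 1 degree of freedom, against 0.626 for Fos and 1.77 for Junb. For Ier2 the counting SD is therefore too small a measure of technical noise. The 10 members together ranged from 1215 CPM in BR4 Bch to 1895 CPM in BR9 UT. Heat-shock and dissociation genes, a list of 16, summed to 3492 CPM in the former and 2897 CPM in the latter, between 2806 and 3521 CPM over all sums, and 0 of its tested genes were called with Bch in either set. The sum with the lowest heat-shock level, BR7 Bch, had the second highest member level, at 1736 CPM. The 4 sums with the least heat-shock RNA (BR7 Bch, BR2 UT, BR9 UT and BR3 UT) held 1536 to 1895 CPM of the members, and the 4 with the most (BR2 Bch, BR4 Bch, BR8 Bch and BR10 UT) held 1215 to 1342 CPM. Depth moved with both levels, from 557512 to 1986071 UMIs in the former 4 and from 2010182 to 4050342 in the latter 4. Over the 16 sums, more heat-shock RNA thus went with fewer member transcripts, at r = -0.79, and at r = -0.90 over the 8 sums of BR7–BR10 and -0.86 over the 8 of BR1–BR4. Both levels are shares of the same libraries and each mouse gave a pair of sums, so these coefficients are descriptions, and the part of cell handling and of depth in the values was not tested. Sorted cells per sum numbered 3000 in most cases, but 13114 in BR1 UT, 3504 in BR1 Bch, 2401 in BR9 UT and 2361 in BR3 UT.

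The genes whose levels followed the mean of the members most closely over the 16 sums were Smox, which encodes a polyamine oxidase (r = 0.86), the antisense RNA Hoxaas3 (0.84), the tight junction gene Cldn4 (0.81) and the MAP kinase phosphatase gene Dusp1 (0.81). Spink4, a goblet cell gene, and Lyrm2 and Nupr1 reached 0.79 each, and Cldn23 0.78. They were picked as the 8 highest of 5112 genes of at least 20 CPM, of which 1% exceeded 0.66. Goblet markers summed to 3528 to 9251 CPM untreated (median 6797) and 5220 to 14110 CPM with Bch (median 5991) in BR7–BR10. The means there were 6593 and 7828 CPM, and 8 of the 10 goblet markers had a positive log2 fold change, with a median of 0.22 and an unadjusted p under 0.05 for 2. In BR1–BR4 they summed to 4417 to 6759 CPM untreated (median 5142) and 3804 to 5294 CPM with Bch (median 4671), 5 of 9 tested had a positive log2 fold change (median 0.01), and no goblet marker was called in either set. In these bulk samples, fewer cells of a type and less RNA per cell cannot be told apart.

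Other genes of the pathway were taken from 6 lists of 162 genes in all, and those named are among the ones with the smallest p in each list and comparison. Of these 162, 115 could be tested in BR7–BR10 and 117 in BR1–BR4, and 0 were called in either set. At an unadjusted p under 0.05, 6 were higher and 1 lower with Bch in BR7–BR10, and 3 were higher and 2 lower in BR1–BR4, against 3.78% and 7.72% of all genes tested. Their median log2 fold change was 0.09 and 0.03. Many values that follow rest on single mice, and a value without the mouse in question is given where it moved by more than 1.5 times.

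Of 51 further immediate early genes, 20 of 36 tested in BR7–BR10 and 20 of 37 in BR1–BR4 had a positive log2 fold change. Plk2, an early-response kinase gene, had the smallest p in BR7–BR10. Its log2 fold change was 0.66 (SE 0.22, unadjusted p = 0.00408, adjusted p = 0.999 by edgeR), and it was higher with Bch in 4 of 4 mice. Trib1, a pseudokinase gene, had 0.48 (SE 0.21) and was also higher in 4 of 4. Plk2 differed between the responses of the sets by 0.96 (SE 0.28) and Trib1 by 0.70 (SE 0.30), each with an adjusted p of 1. In BR1–BR4, the antiproliferative gene Btg1 had 0.39 (SE 0.13, adjusted p = 0.358) and was higher in 4 of 4 mice, while Nab1, a corepressor of Egr proteins, had -0.60 (SE 0.28, and -0.32 without BR4). Over both sets Btg1 had 0.26 (SE 0.10) and its relative Btg2 0.23 (SE 0.13, and 0.10 without BR10).

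Of 23 dimer partners, 17 were tested in each set, and 12 had a positive log2 fold change in BR7–BR10 and 13 in BR1–BR4. Crem, a CRE-binding modulator, was lower with Bch in 4 of 4 mice of BR7–BR10, at -0.95 (SE 0.39, adjusted p = 0.999), and had -0.57 (SE 0.28) over both sets. Atf2, a CRE-binding partner of Jun, was higher in 4 of 4 mice of BR7–BR10, at 0.56 (SE 0.29). In BR1–BR4, Atf4 had 0.21 (SE 0.11, with 0.10 without BR3 and 0.34 without BR1) and Nfe2l1 -0.34 (SE 0.19), and over both sets Atf4 had 0.18 (SE 0.09, and 0.12 without BR3). The interaction was 0.68 (SE 0.28) for Nfe2l1 and -0.80 (SE 0.55) for Crem.

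Components of the MAP kinase and serum response pathways, which relay receptor signals to these genes, were tested for 27 of 32 genes in each set, of which 16 had a positive log2 fold change in either set. The ribosomal S6 kinase gene Rps6ka1 had 0.40 (SE 0.18) in BR7–BR10, with 0.20 without BR9 and 0.66 without BR10. Its relative Rps6ka3 had 0.61 (SE 0.28), with 0.35 without BR7 and 0.98 without BR10. Over both sets Rps6ka3 had 0.30 (SE 0.20, and 0.14 without BR7) and Mrtfa, a coactivator of serum response factor, had 0.44 (SE 0.34, and 0.27 without BR2). In BR1–BR4, Egfr had 0.85 (SE 0.40) and the Jun kinase gene Mapk8 0.72 (SE 0.39), the latter with 0.44 without BR4 and 1.17 without BR3. The interaction was -1.03 (SE 0.55, and -0.59 without BR8) for Mapk8 and 0.90 (SE 0.48) for Elk3, a partner of serum response factor.

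Feedback inhibitors of MAP kinase signalling are transcribed when the cascade is active. Of 18 listed, 11 were tested in BR7–BR10 and 12 in BR1–BR4. As a list they went both ways, with a positive log2 fold change for 7 of 11 (median 0.04) and 5 of 12 (median -0.02), and for 7 of 14 over both sets (median 0.01). The genes named here for Bch were picked for the smallest p and are among those that were higher. Dusp6, the phosphatase of ERK, was higher with Bch in 8 of 8 mice, at a log2 fold change of 0.60 (SE 0.35) in BR7–BR10 and 0.57 (SE 0.37) in BR1–BR4. The added edgeR fit over both sets gave 0.58 (SE 0.24), an unadjusted p of 0.0183 and an adjusted p of 0.902. Dusp1 had 0.50 (SE 0.28) in BR7–BR10, with 3 of 4 mice higher, and its interaction was 0.89 (SE 0.40). Without BR10 these values were 0.22 and 0.61, and without BR9 they were 1.07 and 1.47. Dusp8 had 1.45 (SE 0.57, adjusted p = 0.492, and 0.91 without BR4) in BR1–BR4 and 0.76 (SE 0.37) over both sets, from a mean of 2.80 CPM untreated. The interaction of Spry2 was 0.94 (SE 0.50), with 0.52 without BR2 and 1.54 without BR4.

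AP-1 targets were tested for 19 of 33 genes, and 14 had a positive log2 fold change in BR7–BR10 and 9 in BR1–BR4. The cornified envelope gene Sprr1a had 0.38 (SE 0.14, adjusted p = 0.999) in BR7–BR10, with 3 of 4 mice higher, and 0.26 (SE 0.11) over both sets. Without BR10 these were 0.25 and 0.17. In BR1–BR4, the urokinase receptor gene Plaur had -0.29 (SE 0.15) and Tgfb1 0.47 (SE 0.26), and over both sets Tgfb1 had 0.51 (SE 0.21). The interaction was 0.35 (SE 0.17) for the cyclin gene Ccnd1 and 0.45 (SE 0.24, and 0.28 without BR7) for Plaur. Among 8 regulators of Jun proteins, the ubiquitin ligase gene Cop1 had -0.34 (SE 0.28, and -0.12 without BR8) in BR7–BR10, and the interaction of Gsk3b was 0.48 (SE 0.28). The muscarinic receptor genes Chrm1 and Chrm3 were at most 2.55 and 2.09 CPM, and Chrm2, Chrm4 and Chrm5 were not analysed here.

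Untreated cells of both sets were compared to see whether the members differed before any treatment. None of the 9 members tested passed, against 1.64% of 9159 genes called, and 0 had an unadjusted p under 0.05, against 12.7%. The members' fitted differences ran from -0.77 for Fosl1 to 0.20 for Fos on the log2 scale. Of the 114 tested pathway genes, 8 were called, 7 of them lower in BR7–BR10, and whether members and pathway genes differ in this was not tested. Among dimer partners these were Atf5 (log2 fold change -1.87, SE 0.25, adjusted p = 1.53e-05 by edgeR), Atf4 (-0.64, SE 0.13, adjusted p = 0.00438), both leucine-zipper factors of the amino acid and stress response, and Jdp2 (-1.40, SE 0.33, adjusted p = 0.0224), a repressor that pairs with Jun. Plk2 and the EGF receptor ligand gene Areg were lower by -0.99 (SE 0.24) and -0.89 (SE 0.17), and of the AP-1 targets Ccnd1 and Clu were lower, by -0.61 (SE 0.13) and -0.81 (SE 0.20), and Sprr1a was higher, by 0.76 (SE 0.16). Atf4, Atf5 and Areg stayed called without any single mouse. Without BR2, Plk2 (adjusted p = 0.141), Ccnd1 (0.0695), Clu (0.155) and Jdp2 (0.0639) were not called by edgeR. Clu also lost its call without BR3, BR4, BR7, BR9 or BR10 (at most 0.127), Plk2 without BR3, BR4, BR8, BR9 or BR10 (at most 0.0998), Jdp2 without BR1, BR7 or BR8 (at most 0.0788) and Sprr1a without BR4 (0.0633). The feedback and kinase lists had 0 calls, with Spry2 at -0.37 (SE 0.34, with -0.15 without BR1 and -0.57 without BR4), Dusp4 at -0.38 (SE 0.36, and 0.03 without BR2), Hras at 0.26 (SE 0.13) and Elk3 at -0.58 (SE 0.36), as had the regulators of Jun proteins, with Tsc22d3 at -0.78 (SE 0.27, adjusted p = 0.170). Stem cell markers were called lower for 2 of 11 tested and colonocyte markers called higher for 3 of 9 in BR7–BR10. Their part in these differences was not tested, nor can sex, source and kit be told apart.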

How the data were processed

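Bulk RNA of sorted Lgr5-EGFP+ cells was sequenced from oligo-dT primers with UMIs. The authors deposited raw, not normalised UMI counts for each gene and library, made with the Drop-seq pipeline on GRCm38 with GENCODE M25 per the study's methods, whereas the labels' build field names GRCh38. Strand use in counting is not given in the sources used here. Of 23517 genes, 1520 were blank in technical replicate 2, with no more than 4 UMIs in any library of replicate 1. The blanks were read as 0.

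Technical replicates (267146 to 2119938 UMIs) were summed per mouse and treatment. A count of 3 UMIs, the 95% limit where a gene has 0, equals 0.741 to 5.38 CPM, which covers counting error only. Counts were filtered with filterByExpr, scaled by TMM and tested with edgeR 4.0.16 in R 4.3.3 (quasi-likelihood, robust dispersions, mouse as block), with Benjamini-Hochberg adjustment over all genes tested and a threshold of 0.05. DESeq2 1.42.0 was an alternative. SE is the standard error of the log2 fold change, and CPM are TMM-normalised. Pairing comes from the labels, where a BR number is 1 mouse. Deviations of the paired sums from their group means correlated across genes by -0.00279 to 0.146. Whether mice were cultured in parallel is not stated, so p-values measure the spread between these mice.

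The members and lists were chosen with earlier results of these data known. Named were all 10 members and, per pathway list and comparison, each called gene or otherwise the 2 with the smallest p (1 for lists under 10 tested genes). Some genes chosen in this way are not reported here. Rn7sk and Rps24-ps3 were added after their values were seen. Steps were tested on simulated counts with known fold changes, on 9181 genes for BR7–BR10 and 9219 for BR1–BR4. Promoter windows come from RefSeq and gene positions from GENCODE M21.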

Additional observations from a re-analysis of the deposited data

Results flagged for a closer look

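In a group of 4 mice, a value was singled out when its gap to the nearest other value exceeded Dixon's 95% limit as a share of the group's range, which chance reaches in about 1 in 20 groups. Of 40 combinations of member and group, 2 met this. Jun was high in the untreated sum of BR9, at 163 CPM against 116 to 119 CPM in the other mice of BR7–BR10. Fosl1 was low in the Bch-treated sum of BR2, at 9.83 CPM against 12.6 to 13.0 CPM in the other mice of BR1–BR4.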

How the results depend on the processing

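The alternatives were no replicate block, DESeq2, size factors in place of TMM, counts without a filter, TR1 or TR2 alone (the technical replicates), all 16 sums in one fit, and leaving out each mouse. The fit over both sets and its alternatives were chosen after seeing the data. Members past the threshold stayed at 0 under all of them, in all comparisons. The number of genes called for Bch in BR1–BR4, 2 as reported, was 0 without the replicate block, 15 with DESeq2, 88 without the filter, 9 with TR1 alone and 0 with all sums in one fit, and 0 to 19 without single mice, the 19 without BR4. In BR7–BR10 it was 0, and 0 to 4 without single mice. The interaction gave 1 without the filter in place of 0. The untreated comparison gave 234 without the filter and 74 to 210 without single mice in place of 150. The fit over both sets gave 15 without the filter, 1 with TR1 alone and 0 to 1 without single mice. The replicate block changed no other call. With TR2 alone, Jdp2, Plk2 and Clu were not called between untreated sets.

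Signs of small fitted changes were not stable. Leaving out a mouse moved the fitted Bch change of 9 of 10 members in BR7–BR10 and 7 of 9 in BR1–BR4, and the interaction of 10 of 10, by more than 1.5 times or across 0. The same held for 6 of 11 pathway genes picked for the Bch change in BR7–BR10, 4 of 11 in BR1–BR4, 5 of 11 over both sets and 4 of 11 for the interaction. In BR7–BR10, Fosb was 0.0091 with DESeq2 and Jun 0.0071 with TR1 alone. Without single mice there, Fosb ran from -0.22 to 0.28, Jun from -0.11 to 0.019, Junb from -0.11 to 0.29 and Egr1 from -0.13 to 0.36. In BR1–BR4, Atf3 was 0.15 with TR1 alone and ran from -0.45 to 0.12. The interaction of Fosl2 was 0.16 with TR2 alone and ran from -0.28 to 0.11, and that of Fosb from -0.47 to 0.19. Between untreated sets, Fosl2 was -0.053 with TR2 alone and ran from -0.0020 to 0.37, Fos from -0.021 to 0.45, Atf3 from -0.045 to 0.26, Egr1 from -0.23 to 0.13, Ier2 from -0.0069 to 0.23 and Dusp4 from -0.55 to 0.034. Over both sets, Fos was -0.026 and Fosb -0.034 without the replicate block, and Fos -0.031 with TR2 alone, and without single mice Fos ran from -0.14 to 0.13, Fosb from -0.063 to 0.18, Jund from -0.015 to 0.057 and Egr1 from -0.20 to 0.020. The cause was not tested. Fos, Fosl1, Fosl2, Jund and Ier2 kept their sign under every alternative that gave a value in the Bch response of both sets. Fosb, at 2 to 23 UMIs per sum, is limited most by depth.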
